A study of Rattus norvegicus with 8 samples.

Results

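Bile acid synthesis and conjugation in rat liver was followed through 10 genes: Cyp7a1, Cyp8b1, Cyp27a1, Cyp7b1, Hsd3b7, Akr1d1, Amacr, Slc27a5, Baat and Nr0b2. They were chosen by symbol from the known pathway, and each was found through the RefSeq accession of its array probe. All 10 had exactly 1 probe, and all 10 probes were well above background on all 8 arrays, among 22871 features tested in all. The livers came from male rats aged 22 weeks. In 5 samples the rats had received high-fat diet for 14 weeks and are labelled NAFLD (non-alcoholic fatty liver disease). In the other 3 samples, labelled control, they had received standard chow over the same 14 weeks. Each sample was total RNA on 1 single-colour array. The submitters' sample names share a leading number, which the labels do not explain, between high-fat arrays 1 and 2 and between high-fat arrays 3 and 4. The sources used here give no rat strain, diet composition or time of day of collection, and no statement that each sample was a separate animal, so a p-value here speaks only of spread among these samples, which may be technical.

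Hepatocytes turn cholesterol into bile acids. The classic route starts with hydroxylation of the sterol ring by Cyp7a1, and the alternative route with hydroxylation of the side chain by Cyp27a1, followed by Cyp7b1. Both routes then share Hsd3b7 and Akr1d1, which remodel the ring, and Amacr, which inverts a centre in the side chain before it is shortened in peroxisomes. Cyp8b1 adds the hydroxyl group of cholic acid. Slc27a5 and Baat couple the finished acids to coenzyme A and then to taurine or glycine. Bile acids return to the liver, activate the receptor FXR (Nr1h4) and induce Nr0b2, the corepressor SHP, which lowers transcription of Cyp7a1 and Cyp8b1.

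Promoter sequences were available for 7 of the 10 genes, and 3 are shown: that of Hsd3b7, the gene that passed the test, and those of Cyp27a1 and Nr0b2, which hold letters of nuclear receptor sites. The promoters of Amacr and Baat hold such letters too and are not shown. Each runs 300 bases from 250 before the gene start, 5′ to 3′ on the gene's strand, in RefSeq's GRCr8 assembly: Hsd3b7 chr1:191842438-191842737 on the plus strand, Cyp27a1 chr9:83713282-83713581 on the plus strand, and Nr0b2 chr5:151062910-151063209 on the plus strand. Capitals mark matches, on either strand, to the motifs named next.
Hsd3b7: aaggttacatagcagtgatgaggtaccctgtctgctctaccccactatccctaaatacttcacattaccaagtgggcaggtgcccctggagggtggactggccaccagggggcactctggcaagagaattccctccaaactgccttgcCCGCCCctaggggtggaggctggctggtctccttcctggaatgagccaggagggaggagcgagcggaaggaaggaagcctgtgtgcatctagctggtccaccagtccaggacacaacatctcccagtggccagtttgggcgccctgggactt
Cyp27a1: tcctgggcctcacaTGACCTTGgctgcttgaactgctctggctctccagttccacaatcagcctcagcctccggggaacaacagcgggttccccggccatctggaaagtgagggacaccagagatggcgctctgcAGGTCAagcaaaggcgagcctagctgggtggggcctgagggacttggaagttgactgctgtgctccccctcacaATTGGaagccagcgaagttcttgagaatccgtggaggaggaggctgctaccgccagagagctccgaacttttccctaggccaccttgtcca
Nr0b2: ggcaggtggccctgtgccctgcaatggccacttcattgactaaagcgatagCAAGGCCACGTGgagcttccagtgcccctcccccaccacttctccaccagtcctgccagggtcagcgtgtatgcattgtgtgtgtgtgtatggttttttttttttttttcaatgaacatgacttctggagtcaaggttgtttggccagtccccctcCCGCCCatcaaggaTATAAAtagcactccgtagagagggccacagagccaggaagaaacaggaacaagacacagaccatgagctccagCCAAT
The half-site AGGTCA, shared by many nuclear receptors, was in 16.2% of all 33469 rat promoters of this length. Cyp27a1 held it at positions -236 (minus strand) and -115 from the gene start, and Amacr held it at -201. The first Cyp27a1 match was part of CAAGGTCA, the form bound by the receptor LRH-1 (Nr5a2), present in 1.52% of promoters. Nr0b2 held the related form CAAGGCCA at -199, found in 2.19% of promoters, overlapping an E-box (CACGTG, 6.42%), and a TATA box (TATAAA, 14.2%) at -29. The Hsd3b7 promoter held 1 GC box (GGGCGG, 33.1%) and none of the other motifs searched. Those others were CAAAGTCCA, an HNF4-type half-site (0.391% of promoters, and in that of Baat), the inverted repeat of FXR, AGGTCA and its complement TGACCT facing each other across 1 base (0.0269%), TTATGTAA, a D-box (0.893%), and CCAAT (37.5%). A match says only that these letters lie in this window.

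The arrays differed in brightness and in scan. The 75th percentile of the signal averaged 856 ± 134 intensity units on high-fat arrays and 379 ± 156 on chow arrays (SD, n = 5 and 3, exact permutation p = 0.0179, the smallest that 56 splits allow). Values below are therefore given as log2 of the processed signal minus that percentile. High-fat arrays 2, 3 and 5 were read in 1 scan, high-fat arrays 1 and 4 in another on a later day, and the 3 chow arrays in a scan of their own, so scan and diet cannot be told apart. Of all features, 3.56% passed an adjusted p of 0.05 between diets, with 703 above and 112 below chow. That split was 798 and 294 with quantile normalization, 830 and 310 in the authors' value table, 721 and 279 with cyclic loess, and 1038 and 1077 with quantile normalization after normexp background correction, which subtracts background by a model. It was 699 and 396 without a filter on dim probes, 713 and 368 with an intensity trend, 1858 and 1124 with array weights, and 998 and 980 for the later scan alone. Features were divided by mean signal into 10 brightness bins, with a median log2 fold change of 0.51 for the dimmest bin and −0.24 for the brightest, so each gene is also set beside its own bin. Hepatocyte markers (6 of 6 above background on all arrays) summed to 479 to 569 times the 75th percentile on high-fat arrays and 503 to 822 times on chow arrays. Sums of cholangiocyte, macrophage, stellate, lymphocyte, pancreas and adipocyte markers also overlapped between diets. Above background on all arrays were 6 of 6 macrophage and 6 of 6 stellate markers. For the other lists it was 2 of 6 cholangiocyte, 3 of 5 lymphocyte and 2 of 4 pancreas markers, and 0 of the 1 adipocyte marker measured (Lep). Overlap of sums near background says little of those cells. The 3 endothelial markers measured summed to 28.5 to 31.7 on high-fat arrays and 32.1 to 33.1 on chow arrays, a sum in which Kdr was the brightest. By gene none passed: the log2 fold change was −0.11 for Kdr, −0.14 for Lyve1 and 0.19 for Pecam1 (limma adjusted p = 0.712, 0.610 and 0.703). The part of these markers in the results was not tested.

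Among the 10 genes, Hsd3b7 alone passed the test, and it rose on high-fat diet. That is 1 of 10 genes called (limma, Benjamini-Hochberg adjustment over all features), against 3.56% of features in either direction and 3.07% called higher. Unadjusted p was under 0.05 for 3 of the 10, Hsd3b7, Cyp8b1 and Cyp27a1, against 20.2% of features. With quantile normalization, in the authors' value table and with cyclic loess only 1 of the 10, Hsd3b7, had an unadjusted p under 0.05. With normexp and quantile normalization it was 4 of the 10. The median log2 fold change of the 10 genes was −0.088, with 5 above 0 and 5 below, and that of all features was −0.0054. After quantile normalization the median of the 10 genes was 0.17, with 7 above 0. The diets did not overlap for 2 genes, Hsd3b7 and Cyp8b1, against 16.9% of features in either direction and 7.76% with the high-fat arrays on top. In tissue RNA, fewer cells that express a gene and less of its RNA per cell cannot be told apart.

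**Figure D1:**
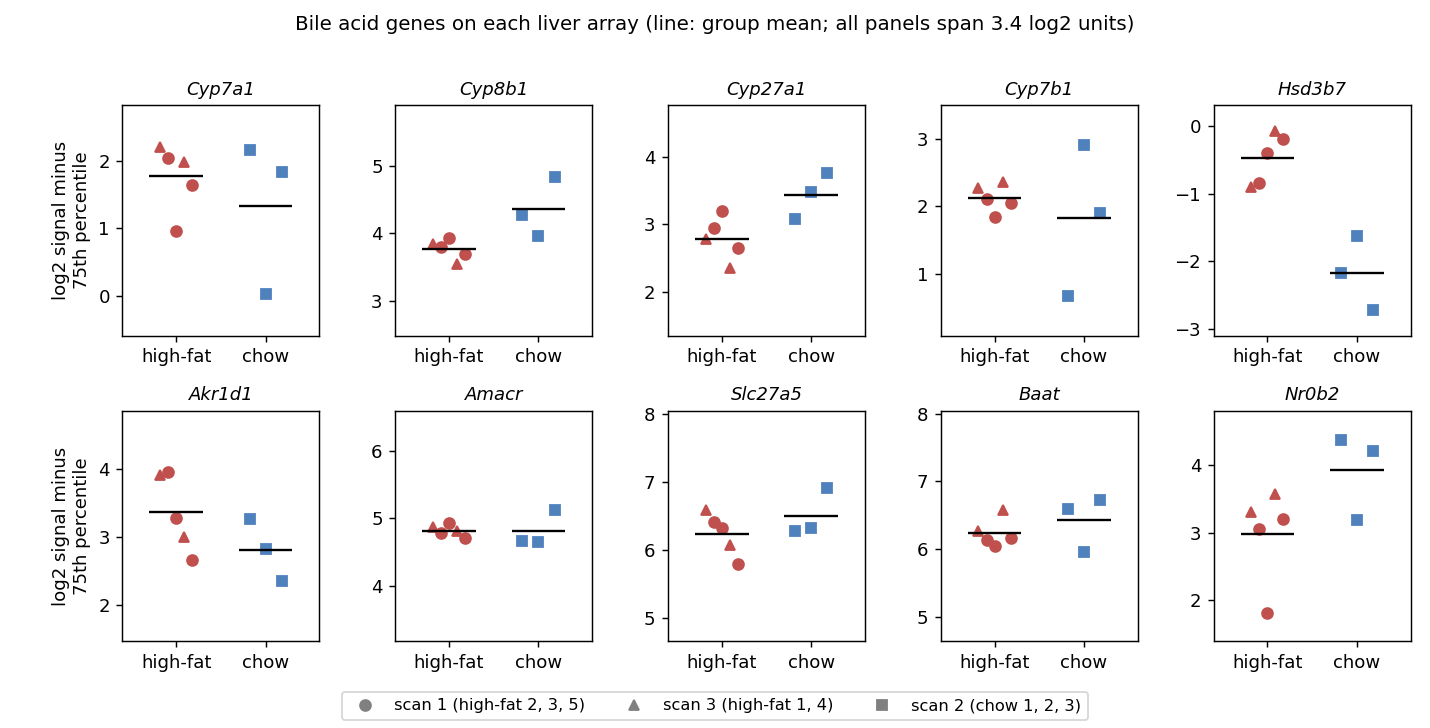
Log2 signal of each bile acid gene minus the 75th percentile of its array, on 5 high-fat arrays (red, left) and 3 chow arrays (blue, right). Symbols mark the scan, lines mark group means, and every panel spans the same number of log2 units; Hsd3b7 and Cyp8b1 are the genes whose diets do not overlap.

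Hsd3b7 is the oxidoreductase that acts on the sterol ring right after its first hydroxylation, in both routes. Its log2 values were −0.90, −0.84, −0.39, −0.071 and −0.19 on high-fat arrays 1 to 5, against −2.18, −1.62 and −2.73 on chow arrays 1 to 3. Every high-fat array lay above every chow array, with the closest pair high-fat array 1 and chow array 2. Group means were −0.48 ± 0.37 on high-fat diet (SD, n = 5) and −2.18 ± 0.55 on chow (SD, n = 3). The log2 fold change was 1.70 ± 0.29 (SE, limma adjusted p = 0.0189), a 3.24-fold increase with a 95% interval from 2.03 to 5.17. In intensity units before scaling, the signal was 389 to 795 on high-fat arrays, against 66.3, 182 and 42.0 on the chow arrays. The dimmest of these was 3.54 times the lowest signal above background on its array.

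Features of the same brightness bin had a median log2 fold change of 0.019, and 1.31% of them had a value as high as that of Hsd3b7 or higher. Against chow, the high-fat arrays of the first scan gave 1.70 (limma adjusted p = 0.0172) and those of the later scan 1.69 (adjusted p = 0.0598). The adjusted p was 0.416 with scan as a random block, 0.0627 with a normexp background, 0.0747 without chow array 1 and 0.0678 without chow array 3. With replicate number as a block over arrays 1 to 3 of both diets it was 0.152. In all 23 alternatives the change was positive, from 1.15 to 1.97, with adjusted p from 0.00618 to 0.416.

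**Figure D2:**
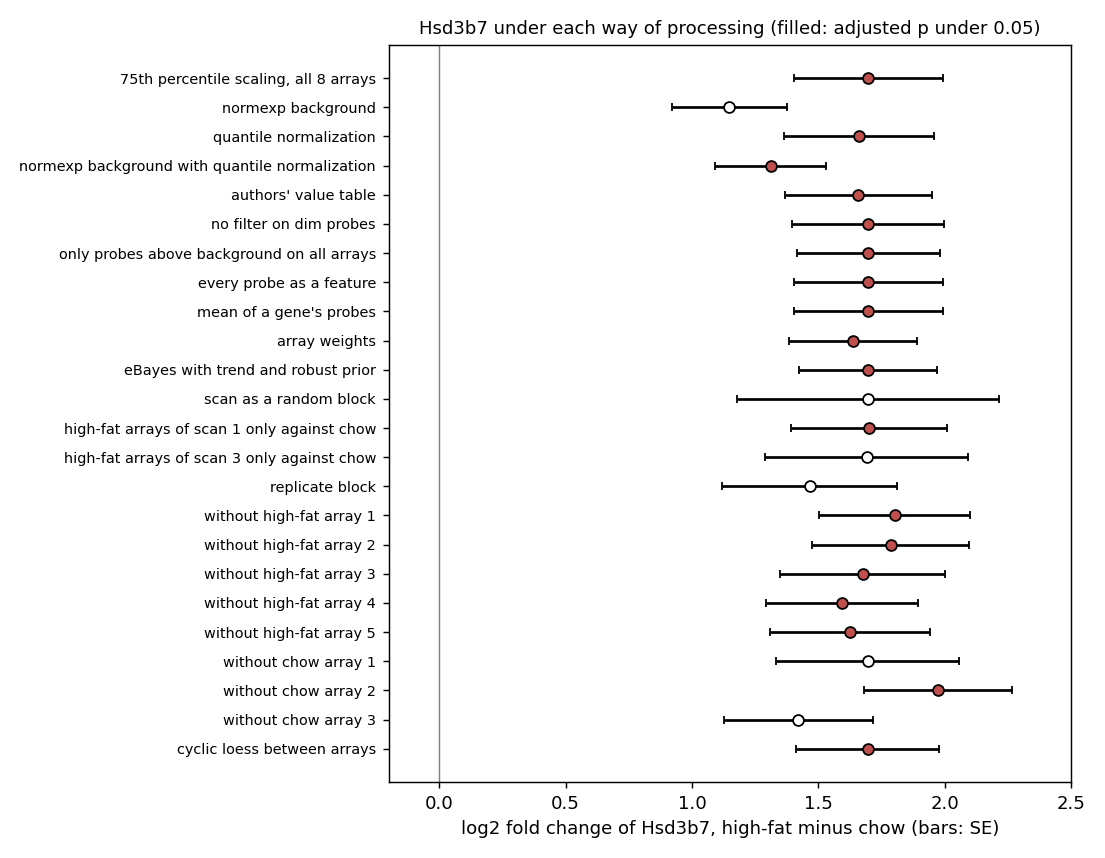
Log2 fold change of Hsd3b7, high-fat minus chow, under each way of processing, with SE bars; filled points passed an adjusted p of 0.05. All values lie between 1.15 and 1.97, and the open points include normexp background, scan as a random block, and the fits without chow array 1 or 3.

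The remaining ring and side-chain enzymes shared by both routes gave no call. Akr1d1, the reductase that bends the ring system, had log2 values of 3.91, 3.96, 3.28, 3.00 and 2.66 on the high-fat arrays and 3.26, 2.82 and 2.35 on the chow arrays. These groups overlapped, and the log2 fold change was 0.55 ± 0.35 (SE, limma adjusted p = 0.421). Its brightness bin had a median of −0.24, which puts Akr1d1 0.79 above features of like brightness. Amacr, the racemase, varied least: it lay between 4.70 and 4.93 on high-fat diet and between 4.65 and 5.12 on chow. Its fold change of 1.01 had a 95% interval from 0.786 to 1.29 (limma adjusted p = 0.984), and its sign turned in 5 of 23 alternatives.

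The start of the classic route varied more between chow samples than between diets. Cyp7a1, the enzyme that limits the rate of the classic route, had log2 values of 2.20, 2.04, 0.96, 1.98 and 1.64 on high-fat arrays 1 to 5, against 2.15, 0.025 and 1.83 on chow arrays 1 to 3. Chow array 2 lay far below the other chow arrays, and high-fat array 3 was the lowest of its diet. Means were 1.77 ± 0.49 on high-fat diet and 1.33 ± 1.15 on chow (SD, n = 5 and 3), and the log2 fold change was 0.43 ± 0.49 (SE, limma adjusted p = 0.686). Without chow array 2 it was −0.22 (adjusted p = 0.792), so the sign rested on that array. The 95% interval of the fold ran from 0.623 to 2.92.

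Cyp7b1, which hydroxylates the ring in the alternative route, was also uneven on chow and in another order. Its values were 2.27, 2.11, 1.85, 2.36 and 2.05 on high-fat arrays 1 to 5, against 0.67, 2.91 and 1.90 on chow arrays 1 to 3. Chow array 2 was here the highest of all arrays and chow array 1 the lowest, while the 5 high-fat arrays lay within 0.51 of each other. The log2 fold change was 0.30 ± 0.42 (SE, limma adjusted p = 0.756), and −0.28 without chow array 1 (adjusted p = 0.719).

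The chow arrays lay much further apart than the spots of any array, since both probes were printed 10 times on each. The SD between spots of 1 array ran from 0.047 to 0.11 for Cyp7a1 and from 0.060 to 0.10 for Cyp7b1, over 9 or 10 usable spots, whereas the array means spanned 2.18 and 2.24. The SD between chow arrays, 1.15 for Cyp7a1 and 1.12 for Cyp7b1, compares with a median of 0.24 over all features. A chow SD as large as that of Cyp7a1 was found in 1.92% of features, and 2.14% matched or exceeded that of Cyp7b1. On high-fat arrays the SD was 0.49 for Cyp7a1 and 0.20 for Cyp7b1, with 0.34 as the median of all features. In 8 of the 10 genes the SD was larger on chow than on high-fat arrays, against 35.7% of all features. Of the 10 genes 7 lay in the brightest bin, and the share among features of like brightness was not counted.

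**Figure D3:**
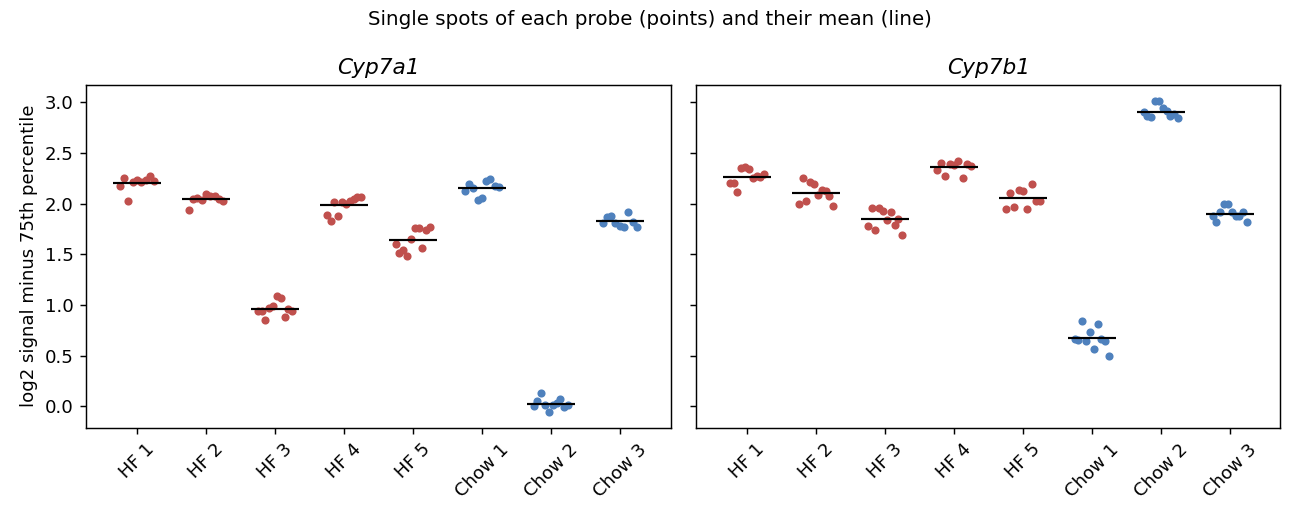
Log2 signal minus the 75th percentile for each usable spot of the Cyp7a1 and Cyp7b1 probes on each array (points) with the array mean (line), high-fat arrays in red and chow arrays in blue. Spots of 1 array cluster tightly, while chow arrays 1 and 2 lie at opposite ends for Cyp7b1 and chow array 2 lies lowest for Cyp7a1.

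Cyp8b1 and Cyp27a1, both hydroxylases, had lower means on high-fat diet without passing the adjusted test. Cyp8b1, which sets the share of cholic acid, measured 3.84, 3.81, 3.94, 3.55 and 3.70 on the high-fat arrays, against 4.28, 3.96 and 4.84 on the chow arrays. All high-fat arrays lay below all chow arrays, though high-fat array 3 and chow array 2 differed by little. The log2 fold change was −0.59 ± 0.21 (SE, limma unadjusted p = 0.0205, adjusted p = 0.166). Cyp27a1, the mitochondrial side-chain hydroxylase, measured 2.78, 2.95, 3.21, 2.35 and 2.65 on the high-fat arrays and 3.08, 3.47 and 3.76 on the chow arrays. High-fat array 3 lay above chow array 1, and the log2 fold change was −0.65 ± 0.23 (SE, limma unadjusted p = 0.0213, adjusted p = 0.169). Both belong to the brightest bin, whose median was −0.24, so the differences from features of like brightness were −0.36 for Cyp8b1 and −0.41 for Cyp27a1. After quantile normalization the log2 fold changes were −0.39 for Cyp8b1 and −0.50 for Cyp27a1 (limma adjusted p = 0.285 and 0.292). Neither then had an unadjusted p under 0.05.

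The conjugating enzymes were among the brightest probes and showed no call. Slc27a5, the bile acid coenzyme A ligase, ran from 5.79 to 6.59 on high-fat diet, with a median of 6.32, and measured 6.28, 6.33 and 6.91 on chow. Its log2 fold change was −0.27 ± 0.23 (SE, limma adjusted p = 0.565). Baat, the acyltransferase that attaches taurine or glycine, ran from 6.05 to 6.58 on high-fat diet, with a median of 6.16, and measured 6.59, 5.95 and 6.72 on chow. Its log2 fold change was −0.19 ± 0.21 (SE, limma adjusted p = 0.693). These values differed from the median of their brightness bin by −0.036 for Slc27a5 and 0.051 for Baat, and both turned positive after quantile normalization, to 0.017 for Slc27a5 and 0.13 for Baat.

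Nr0b2, the corepressor of Cyp7a1 and Cyp8b1, had the largest difference among genes that did not pass. Its values were 3.30, 3.05, 1.82, 3.56 and 3.20 on high-fat arrays 1 to 5, against 4.37, 3.18 and 4.21 on chow arrays 1 to 3. High-fat array 3 stood lowest, and chow array 2 fell among the high-fat arrays. The log2 fold change was −0.93 ± 0.43 (SE, limma adjusted p = 0.264), with a 95% interval of the fold from 0.267 to 1.03. It lay 0.70 below the median of its brightness bin. It was −0.64 without high-fat array 3 (adjusted p = 0.303) and −1.30 without chow array 2 (adjusted p = 0.170). On these 2 arrays, the lowest of their diets for Nr0b2, Cyp7a1 was also the lowest of its diet, and so was Baat. Of the further genes taken up below, Acox2, Scp2, Acot8, Nr1h3, Nr1i2, Rxra, Slc10a1 and Slco1a4 were lowest of their diets there too. Cyp39a1, Ch25h, Nr5a2, Mafg, Onecut1, Abcb11 and Abcc3 were highest of their diets there. The share of all features with either pattern was not counted. Cyp8b1 was the lowest of its diet on chow array 2 but the highest on high-fat array 3. High-fat array 3 and chow array 2 were also the brightest of their diets, with 75th percentiles of 1045 and 559 intensity units. A part of brightness, or a link between Nr0b2 and Cyp7a1, was not tested.

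**Figure D4:**
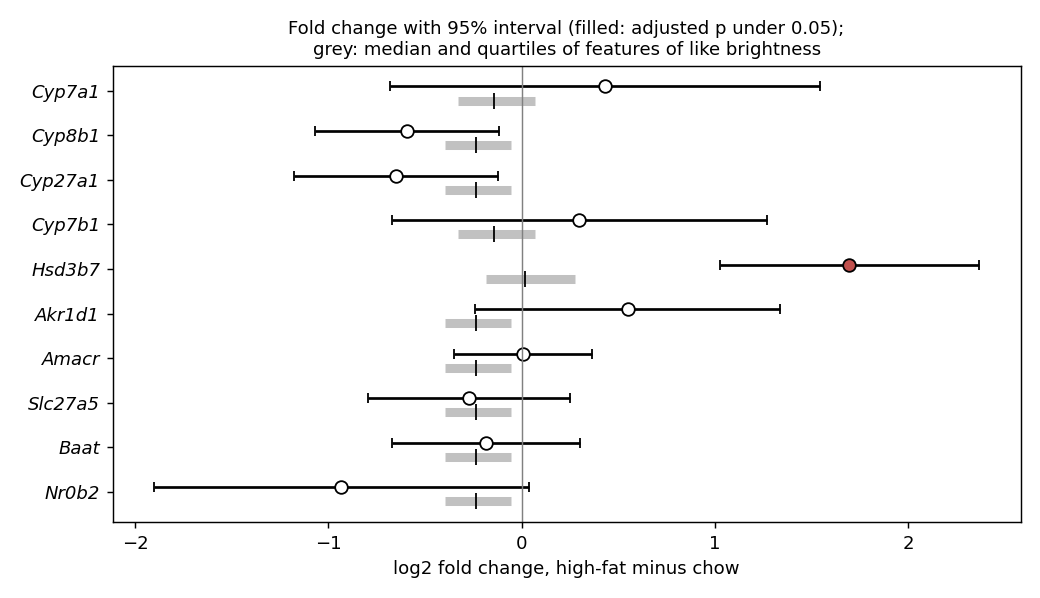
Log2 fold change of each gene, high-fat minus chow, with its 95% interval (limma); the filled point passed an adjusted p of 0.05. Grey bars and ticks give the quartiles and median of features in the same brightness bin; Hsd3b7 at 1.70 lies clear of its bar, and the ticks of the brightest genes lie at −0.24.

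Differences between a pair of genes on the same array do not depend on which constant scales the array, and 4 such differences were compared. Cyp8b1 minus Cyp7a1 was 2.00 ± 0.58 on high-fat diet and 3.02 ± 0.91 on chow (SD, n = 5 and 3), a difference of −1.02 (exact permutation p = 0.0536, two-sided, 0.214 after adjustment over the 4). Hsd3b7 minus Akr1d1 was −3.84 ± 0.93 on high-fat diet and −4.99 ± 0.50 on chow, a difference of 1.15 (exact permutation p = 0.107, adjusted 0.214). Neither p was under 0.05 before adjustment. After it no pair could pass alone, whatever its size, since the smallest p from 56 splits, 0.0179, exceeds 0.05 once adjusted over 4. The adjusted values therefore cannot show that a difference is absent. Cyp7b1 minus Cyp7a1 spanned 0.064 to 0.88 on the high-fat arrays, against −1.48, 2.88 and 0.077 on chow arrays 1 to 3 (exact permutation p = 0.804, adjusted 0.804). Baat minus Slc27a5 differed between diets by 0.087 (exact permutation p = 0.625, adjusted 0.804).

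Between the scans that held high-fat arrays, 26.2% of features passed an adjusted p of 0.05, and none of the 10 genes did (limma, 0 at an unadjusted p under 0.05 as well). The largest of these differences, later scan minus first scan, was 0.74 ± 0.48 for Nr0b2 (SE, adjusted p = 0.304). For Hsd3b7 it was −0.011 ± 0.38 (SE, adjusted p = 0.988). Few arrays lay in each scan, and the SE reached 0.60 for Cyp7a1. Differences of that size could be missed, so the lack of calls does not show that these genes are free of scan effects.

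Of 45 further genes of bile acid biology 37 were measured. Of these, 1 of 37 passed, the regulator Prox1, a share near the 3.56% of all features. Another 4 had probes below the filter (Star, Ppargc1a, Slc51a and Abcg8), and 4 (Cyp46a1, Klb, Fgf15 and Slc51b) were not analysed here. The call for Prox1, a homeodomain corepressor of LRH-1 and HNF4 in hepatocytes, compares a signal with values below detection. Its probe was kept through the high-fat arrays alone, being above background on 5 of 5 high-fat and 0 of 3 chow arrays. It measured −5.03, −5.57, −5.01, −5.34 and −5.07 on the high-fat arrays and −6.52, −6.32 and −6.21 on the chow arrays (limma adjusted p = 0.012). The chow mean of the lowest signals above background, −4.89, exceeded the high-fat mean of −5.20, so neither a fold nor a direction is given. The call was lost in 9 of 22 alternatives.

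Among other synthesis enzymes, 0 of 10 measured genes passed with limma, 3 had an unadjusted p under 0.05, and 8 had negative values, against 3.56% of all features called and 20.2% with an unadjusted p under 0.05. Their median log2 fold change was −0.35, against −0.0054 for all features and −0.24 for the brightest bin. Across the other scalings 6 to 8 of the 10 were negative. The median was −0.11 after quantile normalization, against −0.026 for all features, and −0.066 after normexp with quantile normalization, against 0.0031. With normexp alone it was −0.22, above the −0.29 of all features. The lowest was Abcd3, a peroxisomal importer of bile acid precursors, at −0.59 ± 0.18 (SE, adjusted p = 0.118). The highest was Cyp39a1, an oxysterol hydroxylase, at 0.42 ± 0.20 (SE, adjusted p = 0.285). For 3 of the 10, Abcd3, Hsd17b4 and Acot8, all high-fat arrays lay below all chow arrays, as for 9.13% of all features.

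Of the 15 regulators above background in both diets 0 passed with limma, against 3.56% of all features. An unadjusted p under 0.05 was found for 3, a share near the 20.2% of all features. The median log2 fold change of the 15 was −0.20. Fgfr4, the hepatocyte receptor through which gut FGF signals repress Cyp7a1, measured −0.74, −0.97, −0.81, −0.50 and −0.72 on the high-fat arrays, against −0.092, −0.23 and −0.0072 on the chow arrays. It is named here after its values were seen. The groups did not overlap, as for 9.13% of all features with the high-fat arrays below. The log2 fold change of Fgfr4 was −0.64 ± 0.15 (SE, limma adjusted p = 0.0584). It passed in 7 of 23 alternatives, among them quantile normalization (adjusted p = 0.0383) and the authors' value table (0.0346), with adjusted p from 0.0109 to 0.618 over all of them. For FXR itself (Nr1h4), by the brighter of its 2 probes, the log2 fold change was −0.46 ± 0.22 (SE, limma adjusted p = 0.297). The brightness bin of Nr1h4 had a median of −0.24. For LRH-1 (Nr5a2), also by the brighter of 2 probes, the log2 fold change was −0.032 ± 0.17 (SE, limma adjusted p = 0.944).

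Of 11 measured carriers and exporters 0 passed with limma, against 3.56% of all features. An unadjusted p under 0.05 was found for 2, a share near the 20.2% of all features. The log2 fold change was 0.051 ± 0.20 (SE, limma adjusted p = 0.918) for Abcb11, the pump that secretes bile salts into bile, and −0.28 ± 0.17 (SE, limma adjusted p = 0.390) for Slc10a1, which takes bile salts up from blood. The brightness bin of Slc10a1 had a median of −0.24. The largest log2 fold change of the carriers was that of Abcc4, an exporter towards blood, at 0.66 ± 0.16 (SE, limma adjusted p = 0.0669). Its diets did not overlap, as for 7.76% of all features with the high-fat arrays on top.

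**Figure D5:**
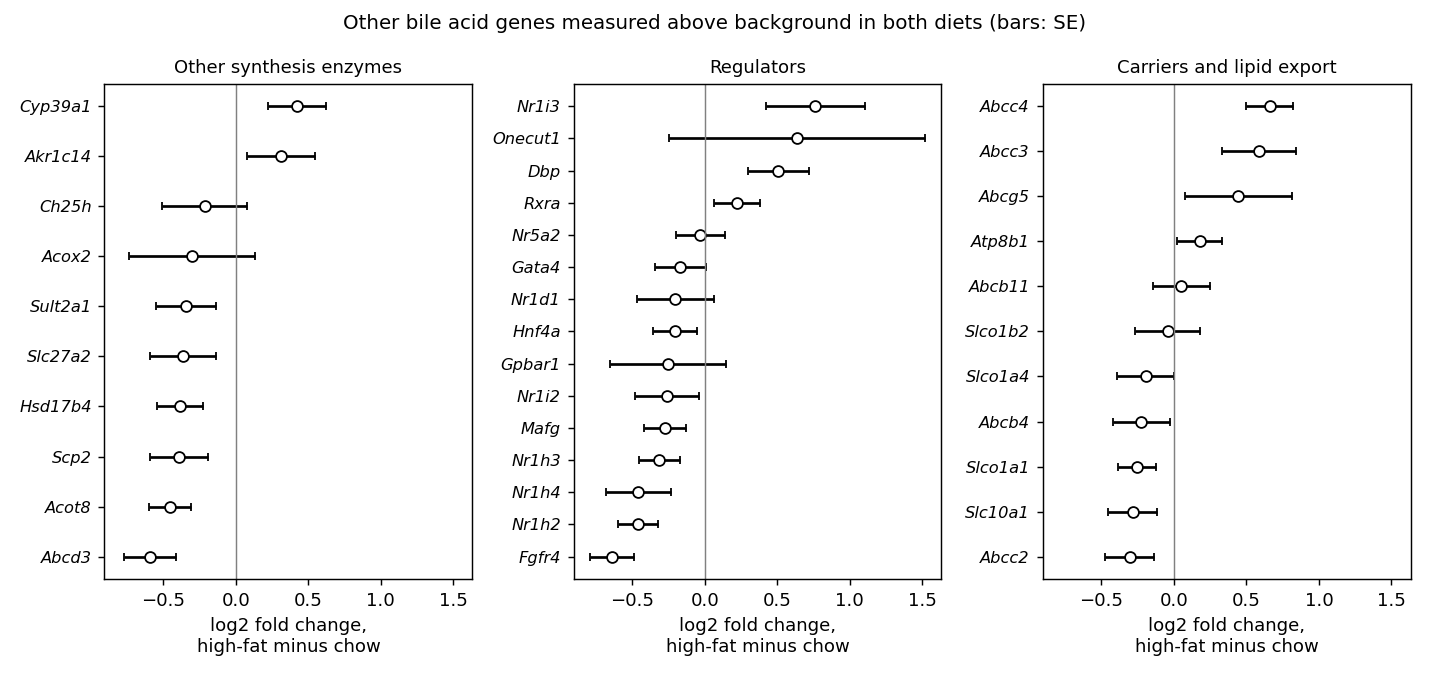
Log2 fold change, high-fat minus chow, with SE bars for the further bile acid genes measured above background in both diets, in 3 lists; none of those shown passed an adjusted p of 0.05. Of the synthesis enzymes 8 of 10 lie below 0, and Fgfr4 and Abcd3 are the lowest of their lists.

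The features whose values over the 8 arrays lay nearest to those of Hsd3b7, by root mean square distance after centring, were Prtfdc1 (0.24), Rnf6 (0.26), Jph4 (0.36) and B3galnt2 (0.36) among 10711 candidates. For Cyp7a1 they were Mtmr1 (0.24), Tle3 (0.33), Map3k13 (0.33) and Lmod2 (0.35). The values of Hsd3b7 and Cyp7a1 lay 0.91 and 0.70 from their own means on the same scale.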

How the data were processed

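Per the submitters' processing notes, scans were read with Agilent Feature Extraction 11.0.1.1. Per the file headers, the deposited processed signal is an intensity with background subtracted within the array and no scaling between arrays, and the deposited median and local background signals are raw intensities. The deposited value table of the authors is on a log2 scale, with column medians of 6.42 throughout; its normalization is not given in the sources used here, and it was used as an alternative only. Other deposited columns hold 0 or 1 marks for each spot.

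Outlier spots were left out, replicate spots were averaged on the log2 scale, and every array had its own 75th percentile subtracted. Probes well above background on at least 3 arrays were kept. Probes were named by accession through RefSeq's GRCr8 gene table (18005 of 30367 probes), and the brightest probe of each gene was used. The diets were compared with limma 3.58.1 (R 4.3.3; lmFit and eBayes, two-sided, Benjamini-Hochberg over 22871 features, threshold 0.05); the method was tested on simulated data. Single values per array were compared by exact permutation. Normexp used the median signals with an offset of 50. Array number limits the precision. The genes, lists and alternatives were chosen with earlier results of these data known; cyclic loess was added after seeing the data. Named genes were the 10 genes, up to 3 passing genes of each further list, and the 4 nearest features for Cyp7a1 and Hsd3b7; Fgfr4, Abcd3, Abcc4, other unpassed list genes and Onecut1 were named after their values were seen.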

Additional observations from a re-analysis of the deposited data

How the results depend on the processing

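Hsd3b7 kept its direction in all 23 alternatives, as did Cyp8b1, Cyp27a1, Akr1d1, Nr0b2 and Fgfr4. The count of the 10 genes called was 0 with a normexp background, with scan as a random block, with the high-fat arrays of the later scan alone and with the replicate block (limma; 3, 1, 2 and 3 genes at an unadjusted p under 0.05), and ran from 0 to 1 with single arrays left out, the losses coming without chow array 1 or chow array 3. The count over all features was 149 with a normexp background (where all features had a median log2 fold change of −0.29), 2115 with normexp and quantile normalization, 486 for probes above background on all arrays, 2982 with array weights, 84 with scan as a random block, 2902 and 1978 for the first and the later scan alone, and 4 with the replicate block, whose pairing is by number only (deviations of same-numbered arrays correlated at 0.035 to 0.065). Single arrays left out gave 374 to 789 features between diets (374, 440 and 432 without chow arrays 1, 2 and 3, 455 without high-fat array 2) and 2335 to 6394 features between the high-fat scans, where the main count was 5991 (2335, 3833, 3089 and 3908 without high-fat arrays 1, 3, 4 and 5). Of the further bile acid genes, 0 passed with a normexp background, on probes above background on all arrays (where Prox1 was not tested), with scan as a random block and with the replicate block (limma; 8, 9, 3 and 4 at an unadjusted p under 0.05). The count was 4 with normexp and quantile normalization and with the first scan alone, 2 without a filter and with an intensity trend, 7 with array weights, and 0 to 1 with single arrays left out. The fitted value of Prox1, which gives no direction, was −0.52 with normexp. Signs turned for Baat (0.13 with quantile normalization, 0.12 with normexp and quantile, 0.13 in the authors' value table, 0.11 with cyclic loess), Slc27a5 (0.0175 with quantile normalization and in the value table, 0.0202 with cyclic loess) and Amacr (−0.0063, first scan alone). With single arrays left out Cyp7a1 ran from −0.22 to 0.84, Cyp7b1 from −0.28 to 0.84, Amacr from −0.0718 to 0.16, Cyp7b1 minus Cyp7a1 from −1.12 to 1.06 and Baat minus Slc27a5 from −0.0574 to 0.28. The cause was not tested in any of these. Quantile normalization turned the median of the 10 genes to 0.17 and that of the carriers to 0.091. Array brightness, lower on chow, limits what dim probes such as that of Prox1 can show.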

Other observations

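Onecut1 (HNF6), a hepatocyte transcription factor, spread widely within both diets. Its log2 values were −1.31, −1.10, 1.11, −0.31 and −0.16 on high-fat arrays 1 to 5, against −2.82, 1.25 and −1.40 on chow arrays 1 to 3 (log2 fold change 0.64 ± 0.88, SE, limma adjusted p = 0.749). In each diet the array with the highest Onecut1, high-fat array 3 and chow array 2, was the one with the lowest Cyp7a1. Those arrays were also the brightest of their diets, with 75th percentiles of 1045 and 559 intensity units. Nr0b2 and Baat were the lowest of their diets there as well. Like Onecut1, the genes Nr5a2, Mafg, Abcb11, Cyp39a1, Ch25h and Abcc3 were highest of their diets on these arrays, so the pattern was not particular to Onecut1. The share of all features with it was not counted. A link between Onecut1 and Cyp7a1 was not tested. Among transcripts with a daily rhythm in liver, Dbp measured 3.28, 3.54, 3.56, 3.71 and 4.07 on high-fat arrays and 3.24, 2.80 and 3.33 on chow arrays, and Nr1d1 measured −0.27, −0.18, 0.13, −0.049 and 0.16 on high-fat arrays and 0.22, −0.48 and 0.75 on chow arrays. Chow array 2 was the lowest of the chow arrays for both, while high-fat array 3 was not the lowest of its diet for either. Collection times are not given in the sources used here, and a part of them in the spread of Cyp7a1 was not tested.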
